A study of Danio rerio with 6 samples.

Results

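Oxidative phosphorylation (OXPHOS) is the last stage of fuel oxidation in mitochondria. Complexes I and II pass electrons from NADH and succinate to ubiquinone, complex III passes them to cytochrome c, and complex IV, cytochrome c oxidase, passes them to oxygen. Proton pumping by complexes I, III and IV drives complex V, the ATP synthase. Most of the subunits are encoded in the nucleus and the rest by mitochondrial DNA (mtDNA), and muscle is among the tissues richest in them. The nuclear genes described here were chosen by name. They are the 93 of 32520 genes in the table whose lower-case zebrafish names begin with ndufa, ndufb, ndufc, ndufs, ndufv, sdha to sdhd, uqcr, cox4 to cox8 or atp5, after 6 ndufaf assembly factors were left out. They comprise 36 genes of complex I, 5 of complex II, 8 of complex III, 21 of complex IV, 18 of complex V, and 5 that are not subunits: the complex II assembly factors *sdhaf2*, *sdhaf3* and *sdhaf4* and the ATP synthase inhibitors *atp5if1a* and *atp5if1b*. The ndufa4 genes carry a complex I name but were counted with complex IV, to which the protein belongs in mammals. *cyc1*, for the cytochrome c1 subunit of complex III, does not match these names. It was listed with other respiratory chain genes, so sums and rankings by complex leave it out.

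RNA was sequenced from 6 pools of 6 zebrafish embryos at 3 days post fertilization (dpf). In each of 3 clutches, numbered 2, 3 and 4, a pool of homozygous *dgat2* sa13945 mutants with opaque yolks was collected with a pool of their wild-type siblings. The allele is a nonsense mutation in *dgat2*, the gene for a diacylglycerol acyltransferase. It comes from a chemical mutagenesis screen, so a mutant family can carry other linked changes. The authors propose that this allele may keep some function, and they could not examine Dgat2 protein in the mutants. Heads and tails were trimmed away, and the mid-sections that remained held the yolk sac with its yolk syncytial layer (YSL) together with dorsal muscle. In such a mixture, fewer cells of a type and less RNA per cell cannot be told apart.

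The libraries held 45958694 to 49918655 estimated counts in wild-type pools and 52476194 to 59166585 in mutant pools, so every mutant library was the deeper. All 93 OXPHOS genes were among the 22762 genes that passed the filter on low counts. *dgat2* itself was measured at 12.7, 5.49 and 13.3 TPM (transcript abundance scaled for transcript length and library size) in the mutant pools, given in the order of clutches 2, 3 and 4 here and wherever a gene has 3 values, and at 18.9, 9.53 and 2.54 TPM in their wild-type siblings. Its log2 fold change was 0.10 (SE 0.56, adjusted p = 1.0, edgeR), and since the allele leaves the transcript in place it does not check the labels. Markers of the dissected tissues were present in every library. The 22 fast skeletal muscle markers summed to 145277 to 166883 TPM in mutant and 155082 to 172691 TPM in wild-type pools, and the 17 YSL and liver markers to 21230 to 25286 and 15791 to 29836 TPM. None of the listed markers that were in the table had 0 counts in all 6 libraries. Markers of other cells differed in places. The 11 epidermal markers summed to 6917 to 7292 TPM in mutants and 7575 to 9224 in wild type. The sum of the 13 pancreatic acinar markers was higher in the mutant pool of each clutch, at 2103, 275 and 956 against 1592, 246 and 249 TPM. None of the acinar markers was called by genotype alone, whereas in the fit blocked by clutch 10 were higher at an unadjusted p under 0.05 (5.14% of all genes) and 1, *ela2l*, passed the adjusted threshold (adjusted p = 0.0378, edgeR). By genotype alone, 3 of the 11 epidermal markers were lower at an unadjusted p under 0.05 in edgeR (1.99% of all genes). With the block 7 were lower (3.05%). Of the 17 YSL and liver markers, 2 were higher at that threshold (3.21% of all genes) and 4 with the block (5.14%). Both lists had 0 genes called in either fit. The 9 heart markers summed to 102 to 218 and 176 to 206 TPM. Their part in the OXPHOS values was not tested.

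Transcripts of the OXPHOS genes were abundant and at nearly the same level in both genotypes. Together the 93 genes summed to 30595, 25374 and 31031 TPM in the mutant pools, in order of clutch, and to 30536, 27015 and 29721 TPM in the wild-type pools. Both clutch 3 pools lay below the other 4, and the genotypes overlapped. The mean was 29000 ± 3148 TPM (SD, n = 3) in mutants and 29091 ± 1843 TPM (SD, n = 3) in wild type, a log2 ratio of -0.004. By mean TPM, 86 of the 93 genes were in the top 10% of the genes tested.

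The summed level was also close between genotypes within every complex. Complex I genes summed to 6851 ± 733 TPM in mutants and 6857 ± 391 TPM in wild type (SD, n = 3 for each sum by complex). Complex II was the lowest, at 487 ± 39.8 and 480 ± 18 TPM. Complex III stood at 2089 ± 249 and 2117 ± 149 TPM. Complex IV and complex V were the highest, with 9558 ± 1041 and 9549 ± 596 TPM for complex IV and 9506 ± 1059 and 9577 ± 686 TPM for complex V. The 5 assembly factors and inhibitors summed to 509 ± 28.9 and 512 ± 40.3 TPM. In each complex the difference between the genotype means was smaller than either SD.

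**Figure D1:**
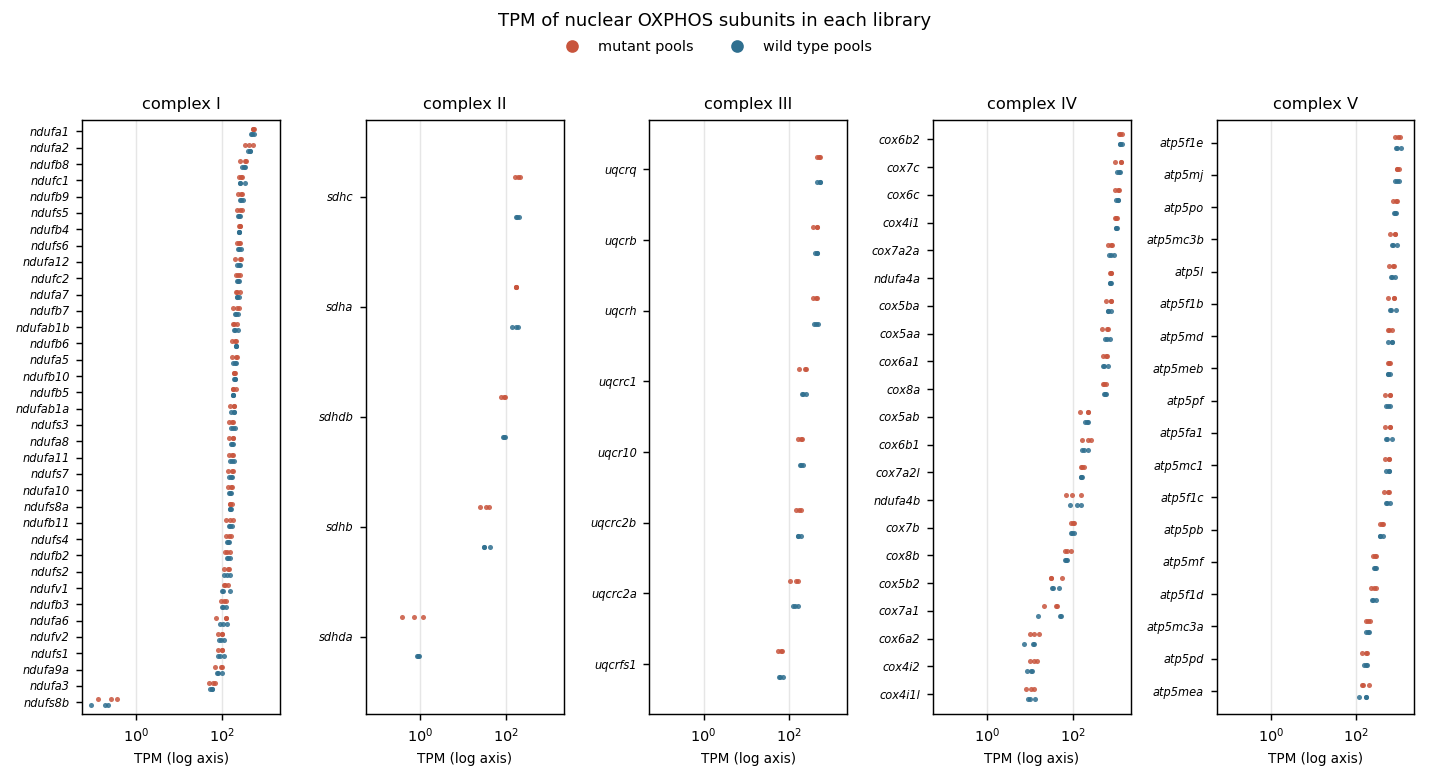
TPM (log axis) of the 88 subunits, 1 panel per complex, with 3 mutant pools in red and 3 wild-type pools in blue for each gene. Mutant and wild-type points lie over each other along nearly the whole range, from *ndufs8b* with a mean of 0.204 TPM to *cox6b2* with a mean of 1290 TPM.

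Within a complex the levels of single subunits spread widely. In complex I the highest gene was *ndufa1*, an accessory subunit of the membrane arm, at 536, 515 and 545 TPM in mutants and 540, 469 and 495 TPM in wild type. It was followed by *ndufa2*, another accessory subunit, with a mean of 428 TPM. The lowest was *ndufs8b*, a copy of an iron-sulphur subunit, at 0.124, 0.347 and 0.257 TPM in mutants and 0.185, 0.222 and 0.0889 TPM in wild type, which rests on 4 to 16 counts per library. In complex II the membrane anchor *sdhc* (mean 188 TPM) and the flavoprotein *sdha* (170 TPM) were the highest. The second membrane anchor came from *sdhdb* at 90.6 TPM, while its copy *sdhda* had 0.830 TPM. The iron-sulphur subunit *sdhb* stood at 34.3 TPM.

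Among the complex III genes chosen by name, the small ubiquinone-binding subunits *uqcrq*, with a mean of 493 TPM, and *uqcrb*, with 424 TPM, were the highest. The Rieske iron-sulphur protein *uqcrfs1* was the lowest of them, at 63.0 TPM. In complex IV the highest was *cox6b2*, at 1244, 1190 and 1389 TPM in mutants and 1283, 1243 and 1390 TPM in wild type, and the next was *cox7c* with a mean of 1206 TPM. Both are small nuclear subunits that surround the mtDNA-encoded core. In complex V the epsilon subunit of the F1 head, *atp5f1e*, led with a mean of 930 TPM. It was followed by the small membrane subunit *atp5mj* with 897 TPM, and the lowest was *atp5mea*, a copy of subunit e, with 154 TPM.

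Where zebrafish have several copies of a subunit, a single copy usually supplied most of the transcripts among the copies with lower-case names. A further 4 genes that match the name rule only in upper case were left out of the sets. *COX7A2*, *COX5B* and *NDUFA4L2* are among them, so the orders given for these subunits do not cover every copy. In 15 sets of paralogs, which hold 33 of the genes, 14 of the 18 neighbouring copies in order of TPM did not overlap in any library. *cox4i1*, a regulatory subunit of cytochrome c oxidase, had a mean of 1033 TPM, against 11.1 TPM for *cox4i2*, whose mammalian counterpart is a lung isoform that responds to low oxygen, and 10.6 TPM for *cox4i1l*. *cox6a1* had 569 TPM against 11.7 TPM for *cox6a2*, the heart and skeletal muscle isoform of mammals. *cox7a2a* had 774 TPM, *cox7a2l*, a factor of respiratory supercomplexes, 162 TPM, and *cox7a1*, the muscle isoform of mammals, 37.2 TPM. Copies named for muscle isoforms were thus the lower ones in these mid-sections.

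The same held for *cox8a* at 551 TPM and *cox8b*, a muscle isoform in rodents, at 72.4 TPM. *cox6b2*, named after a testis isoform of mammals, had 1290 TPM and so exceeded *cox6b1*, with 203 TPM, in every library. The order was *cox5aa* (614 TPM) over *cox5ab* (205 TPM), *cox5ba* (702 TPM) over *cox5b2* (38.8 TPM) and *ndufa4a* (756 TPM) over *ndufa4b* (114 TPM). *ndufs8a* had 155 TPM against the 0.204 TPM of *ndufs8b*. Among the genes for the c-ring of the ATP synthase, the rotor that protons turn, *atp5mc3b* had 750 TPM, *atp5mc1* 542 TPM and *atp5mc3a* 184 TPM. *atp5meb* had 575 TPM against 154 TPM for *atp5mea*.

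The ranges overlapped for 4 neighbours. They were *ndufab1b* and *ndufab1a* (204 and 178 TPM), copies of the mitochondrial acyl carrier protein, *uqcrc2b* and *uqcrc2a* (168 and 137 TPM), core proteins of complex III, *cox4i2* and *cox4i1l*, and the inhibitors *atp5if1b* and *atp5if1a* (241 and 200 TPM). Salmon shares reads that fit several transcripts between them by estimate, so the split between near-identical copies is uncertain.

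**Figure D2:**
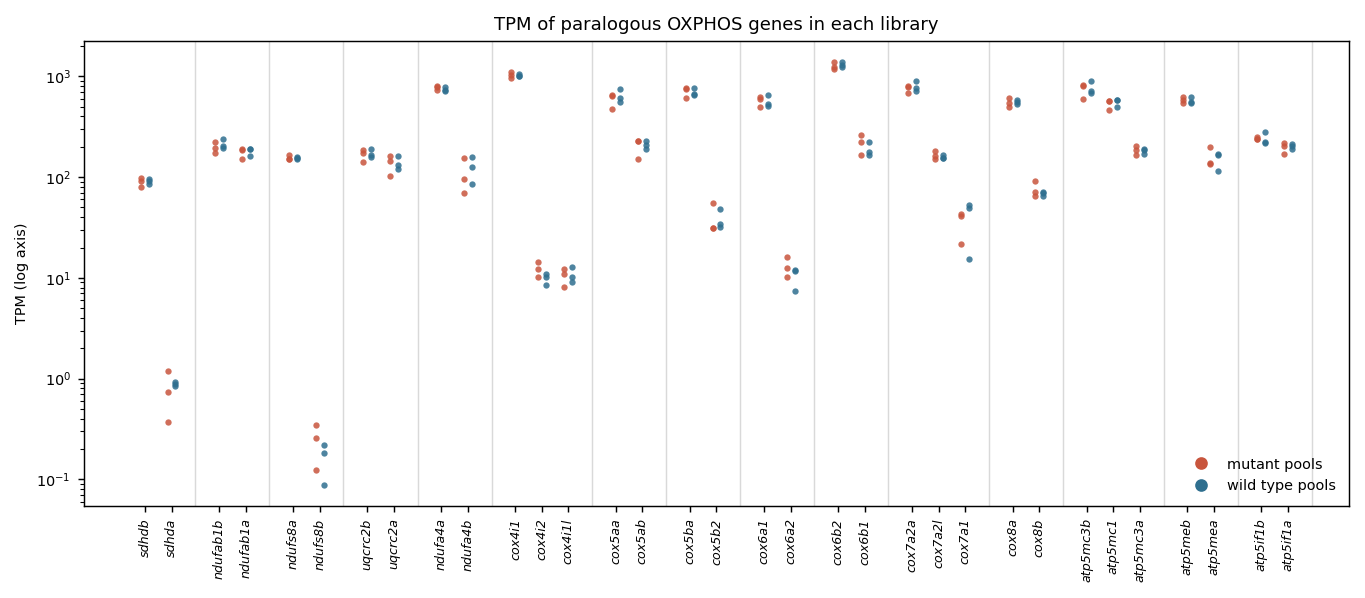
TPM (log axis) of 33 genes in 15 paralog sets, separated by grey lines, with mutant pools in red and wild-type pools in blue. The largest step is from *ndufs8a* (mean 155 TPM) to *ndufs8b* (0.204 TPM).

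The comparison between genotypes asked whether the homozygous *dgat2* mutation was accompanied by a change of OXPHOS transcripts. None of the 93 genes passed an adjusted p of 0.05 in edgeR's quasi-likelihood test, with adjustment over all 22762 genes, of which 0.0132% passed. At an unadjusted p under 0.05, 0 OXPHOS genes were higher and 0 lower, against 3.21% and 1.99% of all genes. Without a clutch block, DESeq2 and limma also called 0, and had 0 OXPHOS genes past an unadjusted p of 0.05. In DESeq2, 2.89% of all genes were higher and 1.66% lower at that threshold. In limma on log2 TPM with a pseudocount of 1, these shares were 1.74% and 1.91%. The share of all genes past the adjusted threshold was not counted in DESeq2 or limma. With the clutch as a block, edgeR again called 0 of 93 (0.338% of all genes). At an unadjusted p it then had 1 gene higher, *cox4i2*, and 1 lower, *ndufa4b*, against 5.14% and 3.05% of all genes.

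The fold changes lay close to 0. Their median was a log2 value of 0.01 over the 93 genes and -0.01 over all genes tested, and 52 of the 93 were above 0. By complex the median was 0.01 for complex I, 0.00 for complex II, -0.01 for complex III, 0.03 for complex IV, and -0.00 for complex V and for the assembly factors and inhibitors. For 82 of the 93 genes the 95% interval of the log2 fold change lay wholly between -0.5 and 0.5, and with the clutch as a block this held for 89. The median SE was 0.11, below the 0.18 over all genes tested. It was also 0.11 for the most abundant 10% of genes, OXPHOS genes left out. Without the block, the interval lay within these limits for 9193 of all 22762 genes and for 1731 of those 2200 abundant genes. For most of the OXPHOS genes a change of more than 0.5 on the log2 scale was therefore outside the interval.

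Without the clutch block, 11 genes had wider intervals. They were *ndufs8b*, *sdhda*, *atp5mea* and 8 of complex IV, namely *cox4i1l*, *cox4i2*, *cox5b2*, *cox6a2*, *cox6b1*, *cox7a1*, *cox8b* and *ndufa4b*. Each of the 11 was a copy less abundant than another of its paralog set, as were 18 of the 93 genes. The widest interval belonged to *ndufs8b*, whose log2 fold change of 0.52 had an interval of -0.86 to 1.90. For *sdhda* the log2 fold change was 0.00, with an interval of -1.07 to 1.08. With the clutch as a block, the intervals of *ndufs8b*, *sdhda*, *cox4i2* and *cox6a2* still reached past -0.5 or 0.5, and those of the others did not. The SE then fell from 0.44 to 0.12 for *cox7a1*, from 0.28 to 0.09 for *ndufa4b* and from 0.25 to 0.12 for *cox5b2*. It rose from 0.60 to 0.64 for *ndufs8b* and from 0.47 to 0.50 for *sdhda*.

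**Figure D3:**
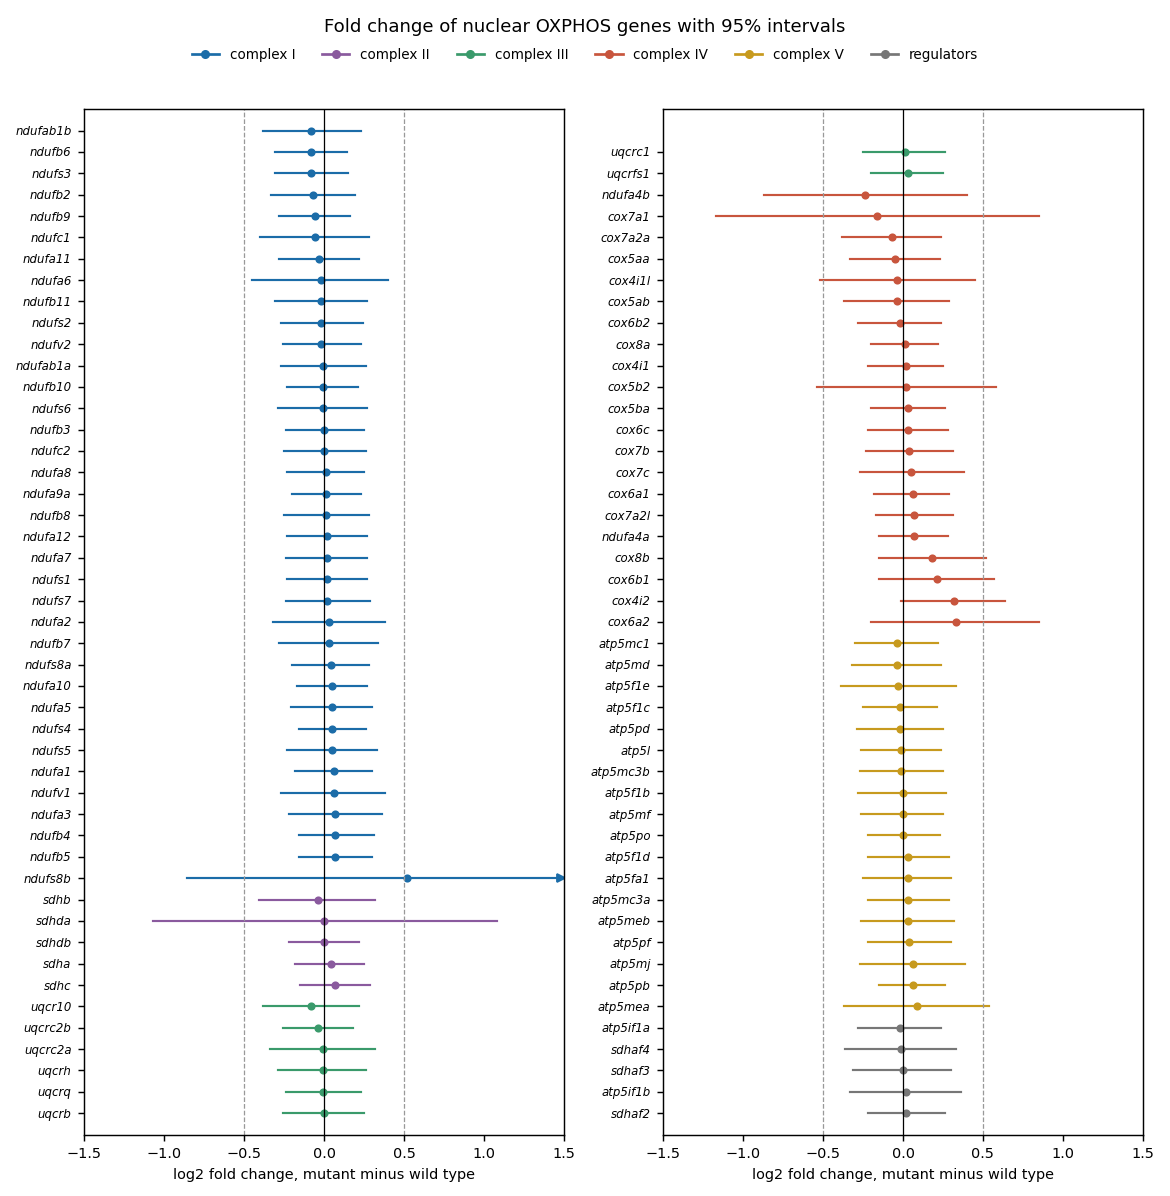
Log2 fold change (mutant minus wild type, points) of 93 nuclear OXPHOS genes with 95% intervals (lines) from edgeR, coloured by complex, with dashed lines at -0.5 and 0.5. The fit has no clutch block. Every interval shown includes 0, and 82 lie between the dashed lines. An arrowhead marks the interval of *ndufs8b*, which runs on to 1.90. With the clutch as a block, not drawn here, the intervals of *cox4i2* (0.04 to 0.60) and *ndufa4b* (-0.44 to -0.02) leave out 0.

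The subunits with the smallest p in each complex were still far from the threshold. In complex I, *ndufb6*, an accessory subunit of the membrane arm, was measured at 73.9, 65.9 and 70.2 CPM (counts scaled for library size with TMM factors) in mutants and 68.8, 74.9 and 78.9 CPM in wild type. These groups overlapped, and the log2 fold change was -0.08 (SE 0.10, adjusted p = 1.0, edgeR). The values for *ndufs3*, a core subunit of the arm that faces the matrix, were 139, 121 and 133 CPM against 139, 128 and 148 CPM, again a log2 fold change of -0.08 (SE 0.10). In complex II the smallest p was that of *sdhc*, with a log2 fold change of 0.07 (SE 0.10), followed by *sdha* with 0.04 (SE 0.09) and *sdhb* with -0.04 (SE 0.16). In complex III, *uqcr10*, a small subunit, had -0.08 (SE 0.13), the core protein *uqcrc2b* -0.04 (SE 0.10) and *uqcrfs1* 0.03 (SE 0.10).

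In complex V the smallest p belonged to *atp5pb*, subunit b of the peripheral stalk. Its level was 446, 399 and 405 CPM in mutants and 414, 389 and 400 CPM in wild type, with a log2 fold change of 0.06 (SE 0.09). The copy of subunit e, *atp5mea*, had 0.09 (SE 0.20) and *atp5mj* 0.06 (SE 0.14). The catalytic beta subunit *atp5f1b*, chosen here after its values were seen, had the most reads of these genes, at 1443, 1126 and 1306 CPM in mutants and 1434, 1213 and 1241 CPM in wild type, with a log2 fold change of -0.00 (SE 0.12). The inhibitors *atp5if1a* and *atp5if1b* stood at log2 fold changes of -0.02 (SE 0.11) and 0.02 (SE 0.15). None of these subunits separated the genotypes.

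The smallest p among the 93 genes was in complex IV. For *cox4i2* the mutant pools (clutches 2, 3 and 4 in turn) had 10.6, 9.30 and 11.2 CPM and the wild-type pools 8.38, 7.32 and 9.27 CPM. All 3 mutant pools were above all 3 wild-type pools, by a narrow margin between the lowest mutant and the highest wild-type pool. *cox4i2* was the only one of the 93 genes with groups that did not overlap on this scale, against 5.14% of all genes with mutants above and 4.65% with mutants below. Its log2 fold change was 0.32 (SE 0.14, 95% interval -0.01 to 0.64, unadjusted p = 0.0568, adjusted p = 0.959, edgeR), and the adjusted p was 0.525 with the clutch as a block. In TPM the groups overlapped, since the mutant pool of clutch 3 lay below the wild-type pools of clutches 2 and 4 (10.9 and 10.3 TPM). An exact permutation test of 3 pools against 3 cannot give a p below 0.1, which was the value for *cox4i2*.

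Other copies of complex IV that were less abundant than a paralog behaved less uniformly. *cox6a2* had 4.23, 3.56 and 4.81 CPM in mutants and 3.54, 2.45 and 4.06 CPM in wild type. Mutants were higher in each clutch but the groups overlapped, and the log2 fold change was 0.33 (SE 0.23, adjusted p = 1.0, edgeR). For *cox6b1*, at 121, 79.7 and 93.8 against 91.9, 75.5 and 86.8 CPM, the log2 fold change was 0.21 (SE 0.16, adjusted p = 1.0, edgeR). *ndufa4b* was the lowest in fold change of all 93 genes, with 133, 102 and 192 CPM in mutants and 157, 118 and 229 CPM in wild type, a log2 value of -0.24 (SE 0.28, adjusted p = 1.0, edgeR). It was lower in each clutch, and its unadjusted p was 0.0348 with the clutch as a block (adjusted p = 0.539, edgeR). Its abundant copy *ndufa4a* had a log2 fold change of 0.07 (SE 0.09).

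Over the 93 genes, 5 were higher in the mutant pool of every clutch, namely *atp5pb*, *cox4i2*, *sdhc*, *cox6b1* and *cox6a2*, against 14.6% of all genes tested. The 4 lower in every clutch were *ndufs3*, *ndufb9*, *ndufa4b* and *cox7a1*, against 14.3% of all genes. Both counts are a smaller share of the 93 genes than of all genes. They include log2 differences that round to 0.00 for *sdhc* in clutch 4 and to -0.00 for *ndufs3* in clutch 2. Higher in clutch 2 but lower in clutch 4 were 67 of the 93 genes, a share that was not counted over all genes. Other gene groups leaned the same way. Of mitochondrial ribosomal protein genes 96.0% were higher in clutch 2 and 21.3% in clutch 4. For the most abundant 10% of genes, OXPHOS genes left out, these shares were 65.9% and 35.5%.

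Within a clutch most OXPHOS genes lay on the same side of 0. On TMM-scaled CPM, the mutant pool of clutch 2 was above its wild-type sibling pool for 87 of the 93 genes, with a median log2 difference of 0.18, whereas 50.3% of all genes were higher there. In clutch 3, 37 of 93 genes were higher (49.6% of all genes) and the median was -0.03. In clutch 4, 19 of 93 were higher (49.1% of all genes) and the median was -0.13. These directions in clutches 2 and 4 depend on the scale: in TPM the medians were -0.00, -0.10 and 0.08, but the medians of all genes then also moved, to -0.15, -0.07 and 0.16. Relative to the median gene the order was the same in TPM, with 79, 34 and 28 of the 93 genes above it in clutches 2, 3 and 4, compared with 87, 37 and 21 in TMM-scaled CPM.

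Each complex followed this order of clutches on the CPM scale, with the exception that complex III had medians of -0.08 in clutch 3 and -0.06 in clutch 4. In clutch 2 the medians were 0.18, 0.13, 0.12, 0.20 and 0.19 for complexes I to V. In clutch 4 they were -0.13, -0.07, -0.06, -0.12 and -0.14. The 2 pools of a clutch contributed differently. The median deviation of the OXPHOS genes from their mean over libraries was 0.13 and -0.06 in the mutant and wild-type pools of clutch 2, -0.11 and -0.07 in clutch 3, and -0.01 and 0.12 in clutch 4. On this CPM scale the highest libraries were therefore the mutant pool of clutch 2 and the wild-type pool of clutch 4. By summed TPM the order differed, and the mutant pool of clutch 4 was the highest, at 31031. The wild-type pool of clutch 4, at 29721, then lay below both pools of clutch 2, at 30595 and 30536. Each clutch has 1 pool per genotype, so the differences between its pools have no replicates and no test.

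**Figure D4:**
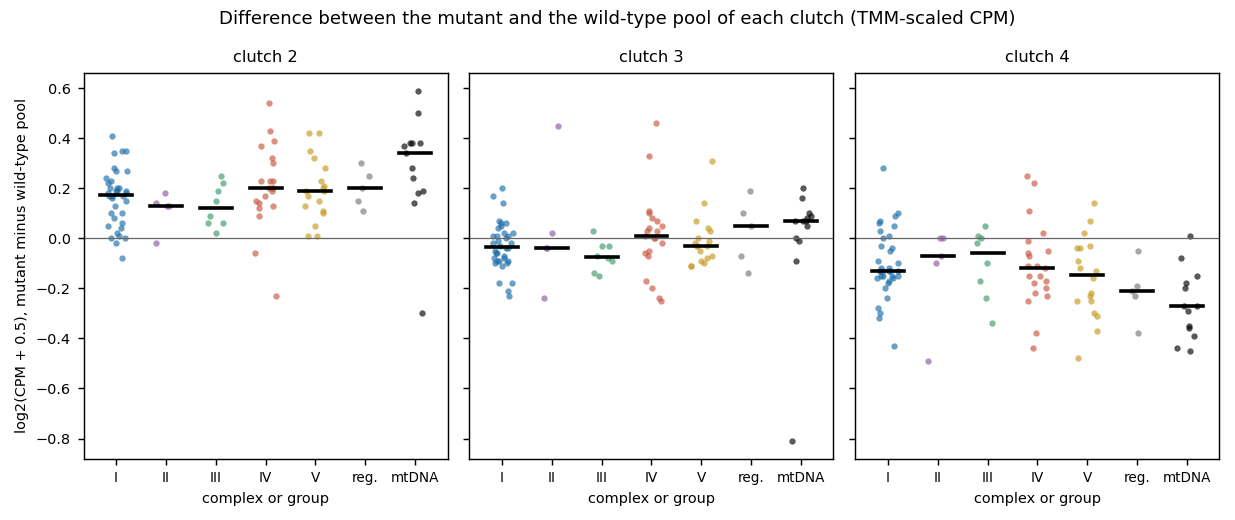
Log2 difference in TMM-scaled CPM (pseudocount 0.5) between the mutant and the wild-type pool of each clutch, 1 point per gene, by complex, for the regulators and assembly factors (reg.) and for the 13 mtDNA-encoded subunits, with black bars at the medians. The points lie mostly above 0 in clutch 2 and mostly below 0 in clutch 4; in TPM the nuclear genes have medians of -0.00 and 0.08 there, beside -0.15 and 0.16 for all genes.

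Tissue markers also differed between the pools of a clutch. In clutches 2, 3 and 4 the median differences on the CPM scale were 0.07, -0.04 and -0.24 for the 22 fast skeletal muscle markers, of which 14, 7 and 4 were higher in the mutant pool. For the 9 slow muscle markers they were 0.07, 0.00 and 0.03, and for the 9 heart markers -1.23, -0.15 and -0.05. The 17 YSL and liver markers had -0.04, -0.04 and 0.36, with 16 of 17 higher in clutch 4. Medians were -0.29, -0.12 and -0.32 for epidermis and 0.52, 0.29 and 1.83 for acinar pancreas. The part of tissue makeup in the OXPHOS differences was not tested.

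Other genes with short or abundant transcripts had medians in the same order of clutches. By mean CPM 77 of the 93 genes were in the top 10% of genes tested, and by effective transcript length 61 were in the shortest 10%. The median differences in clutches 2, 3 and 4 were 0.19, -0.01 and -0.15 for those 61 genes and 0.13, -0.07 and -0.02 for the other 32. For the shortest 10% of all genes, with the OXPHOS genes left out, they were 0.08, 0.01 and -0.05, and for the most abundant 10% 0.07, -0.00 and -0.08. The 89 cytosolic ribosomal protein genes had 0.21, 0.06 and -0.17, and the 75 mitochondrial ribosomal protein genes 0.18, -0.03 and -0.10. The part of length or abundance in the OXPHOS differences was not tested.

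A comparison between clutches, added after the values were seen, gave calls where the comparison of genotypes gave none. With genotype kept in the fit, 2 of the 93 genes passed an adjusted p of 0.05 for clutch (0.536% of all genes), and 8 passed an unadjusted p of 0.05 (12.2% of all genes). Both called genes were in complex IV. *cox7a1* had 13.5, 5.40 and 16.0 CPM in mutant and 14.0, 6.51 and 18.4 CPM in wild-type pools, so both clutch 3 pools were the lowest. Its clutch 3 level was 1.21 below that of clutch 2 on the log2 scale (a difference of -1.21, adjusted p = 0.0170 for clutch, edgeR). Its genotype log2 fold change was -0.16 (SE 0.44), and in TPM the clutch 3 mutant pool was above its sibling pool (21.6 and 15.3 TPM), the reverse of the CPM.

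*ndufa4b* was lowest in both clutch 3 pools and highest in both clutch 4 pools. Its clutch 4 level exceeded that of clutch 3 by 0.94 on the log2 scale (adjusted p = 0.0290 for clutch, edgeR), beside a genotype difference of -0.24. In DESeq2 with length offsets a further gene, *cox5b2*, passed, with an adjusted p of 0.0467. The share of all genes that passed for clutch was not counted in that fit. The values of *cox5b2* were 10.4, 10.9 and 16.4 CPM in mutants and 9.36, 11.3 and 16.5 CPM in wild type, so clutch 4 was the highest in both genotypes. All 3 genes are paralogs of more abundant subunits. The other genes past an unadjusted p of 0.05 in edgeR were *ndufa6*, *uqcrc2a*, *cox6b1*, *sdhb* and *ndufv1*.

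**Figure D5:**
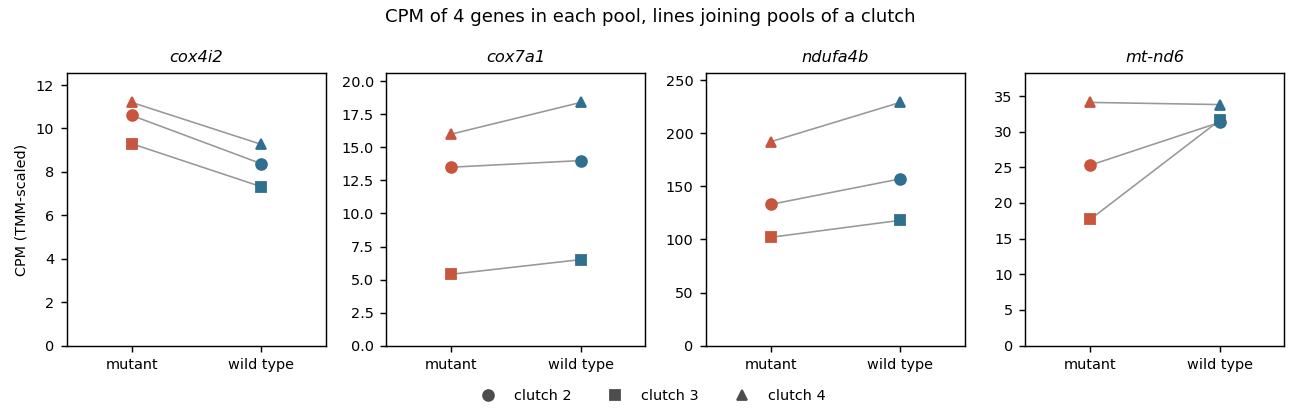
TMM-scaled CPM (axis from 0) of *cox4i2*, *cox7a1*, *ndufa4b* and *mt-nd6* in each pool, with lines joining the pools of a clutch and symbols marking the clutch. *cox4i2* is the gene whose mutant pools are all higher, *cox7a1* and *ndufa4b* are lowest in both clutch 3 pools, and the *mt-nd6* mutant pools run from 17.7 to 34.1 CPM.

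The 13 subunits encoded by mtDNA belong to complexes I, III, IV and V, and none was called by genotype. They were far more abundant than the nuclear ones, summing to 162558, 206861 and 191903 TPM in mutants and 134679, 198880 and 214711 TPM in wild type. Much of this came from *mt-atp8*, a very short gene, for which each read is worth many TPM, with 61641 to 123013 TPM on only 394 to 935 CPM. *mt-atp8* overlaps *mt-atp6* on a shared transcript, as *mt-nd4l* does *mt-nd4*, so their reads cannot be cleanly separated. By CPM the highest was *mt-co1*, the catalytic core of complex IV, at 15360, 15318 and 14847 in mutants and 13023, 15459 and 16776 in wild type, with a log2 fold change of 0.01 (SE 0.12). None of the 13 was called, and their median log2 fold change was 0.01.

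Within clutches the mtDNA genes went the way of the nuclear ones, with CPM medians of 0.34, 0.07 and -0.27 in clutches 2, 3 and 4. In TPM these were 0.16, -0.01 and -0.06, with the sign of clutch 3 turned, beside -0.15, -0.07 and 0.16 for all genes. Relative to the median gene the order was the same. In TPM 12, 9 and 1 of the 13 genes lay above it, compared with 12, 10 and 1 in TMM-scaled CPM. The wild-type pool of clutch 2 was the lowest library, with a median deviation of -0.36, and the wild-type pool of clutch 4 the highest, with 0.25. *mt-nd6*, the complex I subunit encoded on the opposite mtDNA strand from the others, had 25.3, 17.7 and 34.1 CPM in mutants and 31.3, 31.6 and 33.8 CPM in wild type. The groups overlapped only through the clutch 4 mutants, and the log2 fold change was -0.33 (SE 0.21, adjusted p = 1.0, edgeR). Its unadjusted p was 0.0454 with the clutch as a block (adjusted p = 0.597, edgeR). The counting is not stated to use strand, so reads from genes on the other strand cannot be told apart from its own.

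The related mitochondrial genes were near 0 as well, and 0 of them were called. The 20 other respiratory chain genes, such as those of cytochrome c and ubiquinone synthesis, had a median log2 fold change of 0.02, and the 18 genes of the TCA cycle 0.00. Neither list had a gene past an unadjusted p of 0.05. Of 43 assembly factors, including the 3 sdhaf genes, 2 were higher at an unadjusted p of 0.05 (3.21% of all genes): *taco1*, a translational activator of *mt-co1* in mammals, with 0.65 (SE 0.28), and *lyrm7*, a complex III assembly factor, with 0.34 (SE 0.14), both with an adjusted p of 0.951 (edgeR). The median of that list was -0.01. Of 18 carriers and channels, with a median of 0.02, *ckmt2a*, a mitochondrial creatine kinase, was the 1 gene lower at an unadjusted p of 0.05 (1.99% of all genes), with -0.54 (SE 0.24, adjusted p = 0.951, edgeR). The 15 regulators of mitochondrial biogenesis had a median of -0.08, with 0 past an unadjusted p of 0.05.

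The block by clutch left all these lists without a call. At an unadjusted p of 0.05, which 5.14% of all genes passed as higher and 3.05% as lower in that fit, 1 of the 20 other respiratory chain genes was higher, *sqor*, a sulphide oxidase that feeds ubiquinone. Of the 18 carriers and channels 3 were higher, the carriers *ucp1* and *ucp3* and the creatine kinase *ckmt1*, and 1 was lower, *ckmt2a*. *taco1* and *lyrm7* were again the 2 assembly factors that were higher. These names were chosen after the values were seen. Of the 93 nuclear OXPHOS genes, 2 lie on chromosome 10 with *dgat2*, by gene name in the GRCz12tu annotation, where linked changes of the mutagenised chromosome would be carried. These were *ndufa8*, an accessory subunit of complex I, with a log2 fold change of 0.01 (SE 0.11), and *cox5ba* with 0.03 (SE 0.10).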

How the data were processed

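The authors made poly(A)-selected libraries from mid-section pools, filtered ribosomal RNA reads, mapped the rest to GRCz11 with STAR 2.7.9a and quantified genes with Salmon 1.10.1. The deposited table of estimated counts is not scaled for library size. The deposited TPM values were scaled by the authors for transcript length and library size. Estimated counts (26.9% not whole) were rounded. Genotypes were compared with edgeR 4.0.16 in R 4.3.3 (TMM, filterByExpr, quasi-likelihood test, Benjamini-Hochberg adjustment over 22762 genes). Each SE was obtained by dividing the log2 fold change by the root of its F statistic, and intervals are 95% intervals. Within-clutch differences used log2(CPM + 0.5). Effective length is the ratio of estimated count to TPM.

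Pools of a clutch are siblings, so clutch numbers pair them by design. Their deviations from the genotype means correlated at 0.351, 0.309 and 0.185 in clutches 2, 3 and 4, against -0.299 to 0.0311 between clutches. The study names no covariate, so the clutch block was an alternative, beside DESeq2 1.42.0, limma 3.58.1 on log2 TPM with a pseudocount of 1 or 0.1, other normalization factors and filters, thinning to equal depth, other membership and leaving out each library.

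The genes, the 6 related lists and the 10 marker lists were chosen with earlier results of these data known. Named genes are those called, the 3 smallest p-values and the extremes of TPM in each complex, paralogs, mtDNA genes and *dgat2*. Other names, such as *ndufb9*, *ndufa6*, *ndufv1* and *ela2l*, were picked with values in view, also where the text does not say so. The remaining marker lists had median log2 fold changes of 0.03 (slow muscle), 0.15 (erythrocyte), -0.11 (ionocyte), -0.21 (neuron) and -0.15 (notochord), beside -0.07 for fast muscle, -0.36 for heart, 0.06 for YSL and liver, -0.27 for epidermis and 0.73 for acinar pancreas. A promoter motif comparison was planned but not run, since no promoter sequences were used here, and chromosomes were taken by gene name from GRCz12tu, without base positions.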

Additional observations from a re-analysis of the deposited data

Results flagged for a closer look

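Opposite directions in different clutches drew attention to the nuclear OXPHOS genes. In TMM-scaled CPM the median log2 difference between mutant and wild-type pool was 0.18 in clutch 2 and -0.13 in clutch 4. With 1 pool per genotype in a clutch this difference was not tested, and in TPM the medians were -0.00 and 0.08, beside -0.15 and 0.16 for all genes.

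The mtDNA-encoded subunits showed the same pattern, with a median of 0.34 in clutch 2 and -0.27 in clutch 4. In TPM these medians were 0.16 and -0.06, beside -0.15 and 0.16 for all genes. The difference between these clutches was likewise not tested.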

How the results depend on the processing

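The count of 0 called genes held in all 24 alternatives for the 93 nuclear OXPHOS genes, including edgeR with the clutch as a block (0) and each library left out. Few genes of any kind were called in edgeR, at 0.0132% of all genes in the main fit and 0.338% with the block. That share was not counted in the other alternatives. A count of 0 among 93 genes therefore does not set the OXPHOS genes apart. At an unadjusted p of 0.05 the 24 alternatives gave 0 to 5 genes higher and 0 to 1 lower. The highest count came from the block without clutch 4, an alternative added after the data were seen, with *cox4i2*, *atp5if1b*, *atp5mea*, *atp5mj* and *cox8b*, where 5.08% of all genes were higher. The median log2 fold change ranged from -0.05 to 0.07 with each library left out and from -0.01 to 0.02 under the other tools, scalings, filters and memberships. The block without clutch 2, 3 or 4 gave -0.075, 0.030 and 0.079. Genes without overlap between genotypes numbered 1 with TMM factors, 2 with library totals (*cox4i2* and *ndufa4a*) and 0 in TPM. Of all genes, 5.14%, 5.51% and 2.89% lay above without overlap on these scales and 4.65%, 3.92% and 4.67% below. The log2 ratio of the summed level ran from -0.056 to 0.083 with each library left out, the highest without the mutant pool of clutch 3. The block changed no call among the 93 genes, the 13 mtDNA genes or *dgat2*, whereas the acinar marker *ela2l* passed only with it. Of 1356 single-gene values under alternatives, 206 had the other sign, 27 of them after moving by over 1 SE, and 0 were called. Clutch calls numbered 2 with RLE factors and 3 in DESeq2, both added after the data were seen. The share of all genes called for clutch was counted only with TMM factors in edgeR, at 0.536%.

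The precision of these fold changes rests on 3 pools per genotype, with variances that edgeR estimates partly from all genes together. Spread among pools was not separated from counting noise. Counts were lowest for *ndufs8b*, with 4 to 16 per library, and *sdhda*, with 17 to 40.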
